A study of Mus musculus with 5 samples.

Results

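The genes described here code for 2 neuropeptide precursors (Calca and Penk), for the calcitonin receptor-like receptor and 2 of its partner proteins (Calcrl, Ramp1 and Ramp3), and for the receptors of neuromedin U and of vasoactive intestinal peptide (Nmur1 and Vipr2). They are 7 of the 27726 genes common to 5 single-cell libraries of sorted mouse lung group 2 innate lymphoid cells (ILC2s), and were taken as a list by symbol. No adrenergic receptor is among these 7 genes. All mice were female wild-type C57BL/6, 4 to 8 weeks old. The cells of 5 mice were pooled in each library, so the spread between mice was not measured. The cells were sorted as lineage-negative, ST2+, CD127+, Thy1.2+ and CD45+. The naïve library (1 library) came from mice without a tumour. The 2 ta-non-activated libraries (tumour-associated) came from mice with a TC1 tumour, 1 library at week 2 and 1 at week 3. These cells were sequenced fresh. TC1 is a mouse lung tumour line that was injected under the skin of the right flank, while the cells were taken from the lungs. The 2 ta-activated libraries, also from weeks 2 and 3 of the TC1 tumour, were cultured for 7 days with IL-2, IL-33 and TSLP at 10 ng/mL each, so culture and cytokines cannot be told apart.

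Levels were read in cells with a UMI (a counted RNA molecule) of Il1rl1, which codes for ST2, or of Gata3, a transcription factor that ILC2s carry. These were 15008 of 16530 cells that had at least 200 genes and under 5% mitochondrial counts. There were 5886 of them from naïve mice, 1770 and 902 in the ta-non-activated libraries of weeks 2 and 3, and 2712 and 3738 in the ta-activated libraries of weeks 2 and 3. A level is given as CPM, the UMIs of a gene per 1000000 UMIs of these cells, with a 95% Poisson interval that covers counting error only. Levels are compared between libraries for each gene and not between genes.

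ILC2s sit beside nerve endings and neuroendocrine cells in the airway wall, and peptides from these cells act on them. Neuromedin U, through NMUR1, and vasoactive intestinal peptide, through VPAC2 (the product of Vipr2), are known to drive ILC2s to release type 2 cytokines. Calcitonin gene-related peptide (CGRP), made from Calca, binds CALCRL only when a receptor activity-modifying protein is at its side: with RAMP1 the pair is the CGRP receptor, and with RAMP3 it is a receptor for adrenomedullin. ILC2s also make CGRP themselves, and the enkephalins that are cut from the Penk product act on opioid receptors.

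Both precursors yield more than 1 product from 1 gene, and the counts do not tell the products apart. Calca lies at chr7:114631478-114636357 on the minus strand (GRCm38, GENCODE M21) and is spliced to a calcitonin or a CGRP message. The coding stretches at which these messages part are shown because every Calca value below is a sum over both. Lower case marks the end of the last shared exon, and capitals mark the first 60 bases of the exon of its own, at chr7:114633726-114633785 for calcitonin and chr7:114632540-114632599 for CGRP.
Calca, calcitonin: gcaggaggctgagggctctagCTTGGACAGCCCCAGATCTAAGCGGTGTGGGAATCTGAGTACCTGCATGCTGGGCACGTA
Calca, CGRP: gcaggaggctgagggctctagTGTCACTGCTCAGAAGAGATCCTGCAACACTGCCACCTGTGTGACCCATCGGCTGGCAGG

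Penk lies at chr4:4133531-4138819 on the minus strand, and its message holds 6 copies of methionine enkephalin and 1 of leucine enkephalin. 4 of the copies are shown, since each Penk UMI stands for a message with all 7, with the 15 bases of the pentapeptide in capitals, and the flanking codons, most of them for the lysine and arginine at which the precursor is cut, in lower case. Copies 1, 3, 6 and 7 below are the methionine enkephalin at chr4:4134328-4134354, the one at chr4:4134220-4134246, the leucine enkephalin at chr4:4133935-4133961 and the last methionine enkephalin at chr4:4133842-4133868.
Penk copy 1: aagaagTACGGAGGCTTCATGaaacgg
Penk copy 3: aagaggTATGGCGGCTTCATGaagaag
Penk copy 6: aagaggTATGGGGGCTTCCTGaagcgc
Penk copy 7: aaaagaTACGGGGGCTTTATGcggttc

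3 features of the libraries bear on every value below. First, the ta-non-activated library of week 3 was the shallowest of the 5, with a median of 3511.5 UMIs per gated cell against 4551.5 in the naïve library and 12446.5 to 16279 in the others, and 43.8% of its gated cells carried 3 or more of 10 T cell markers, against 13.6% to 24.3% elsewhere. The summed level of these markers was 5042 CPM there and 290.1 to 1112 CPM in the other libraries, with 8 to 10 of the 10 markers detected and Cd4 at 0 in the 3 fresh libraries. Trbc2, Trbc1 and Cd3g held most of the sum in every library, at 509.1, 255.9 and 228.9 CPM in naïve cells. A UMI of each of these 3 genes is enough for the mark. Cd3d and Cd3e stood at 23.3 and 25.4 CPM in naïve cells, but at 423.5 and 241.6 CPM in the shallowest library. Whether cells with the mark are T cells was not tested. Levels are also given without these T-marked cells, a choice made after the data had been seen. The mark was read before thinning, and T-marked cells were the deeper ones in every library. Their median was 6415 UMIs in the week 3 ta-non-activated library, against 2892 in its other gated cells. Without T-marked cells the markers still summed to 986.2 CPM there and to 796.6 CPM in the naïve library. Second, the ta-non-activated library of week 2, labelled as fresh, held 8926 CPM of Il13 against 59.1 CPM in the naïve and 34.3 in the other ta-non-activated library. Over 7342 genes its root mean square log2 difference was 1.08 and 1.14 from the ta-activated libraries of weeks 2 and 3 and 1.31 from the other ta-non-activated library. Last, genes with long introns were high in the naïve library, as described with the comparison it touches. The libraries shared 1 to 8 cell barcodes per pair.

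Calca was high in every library except the week 2 ta-non-activated one. Its level was 216.9 CPM in naïve cells, 6.61 and 178.7 in the ta-non-activated libraries of weeks 2 and 3, and 148.2 and 399.8 in the ta-activated libraries of weeks 2 and 3. The intervals of the 5 libraries did not overlap, and the 2 ta-non-activated libraries, which share a group, differed 27.0-fold (95% interval 23.3 to 31.5). Without T-marked cells the week 3 ta-non-activated level was 498.7 CPM and stood above the naïve level of 245.3 CPM, so the order of these libraries turned. The 7 markers of neuroendocrine cells, another source of CGRP, summed to 1.72 CPM in the naïve, 11.5 and 3.61 in the ta-non-activated and 16.4 and 14.4 CPM in the ta-activated libraries, with 2 to 5 of them detected. Uchl1 held most of the sum in the last 4 libraries, at 11.4, 3.21, 13.2 and 12.4 CPM, while Chga was at 0 in all 5. The 6 epithelial markers summed to 269.9 CPM in the naïve library (Scgb1a1 224.2 CPM) and to 2.47 to 58.0 CPM in the others. The part of neuroendocrine or other epithelial cells in the Calca level was not tested.

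Penk was near 0 in the naïve and week 3 ta-non-activated libraries, with 1 UMI in each. The levels were 0.033 CPM (0.00084 to 0.18) and 0.20 CPM (0.0051 to 1.12), under the limits that 3 UMIs set at 0.099 and 0.60 CPM. It stood at 19.5 CPM in week 2 ta-non-activated cells and at 22.5 and 9.16 CPM in the ta-activated libraries of weeks 2 and 3. These UMIs came from few cells: 42 of 1770, 24 of 2712 and 57 of 3738 gated cells had any. The top 1% of cells held 90.3%, 100% and 95.7% of the Penk UMIs in those 3 libraries, and 1 cell at week 2 of the ta-activated group held 670 of its 1255.

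Calcrl, the receptor subunit shared by CGRP and adrenomedullin, separated the naïve library from the other 4. Its level was 305.9 CPM (299.7 to 312.2) there, 23.3 and 22.1 in the ta-non-activated libraries of weeks 2 and 3, and 25.3 and 29.7 in the ta-activated ones. The naïve level was 13.1-fold (12.2 to 14.1) and 13.8-fold (11.5 to 16.9) above the 2 ta-non-activated libraries, which did not differ beyond counting error. Calcrl is also an endothelial gene, and the 10 endothelial markers summed to 84.3 CPM in the naïve library, with all 10 detected, and to 16.1 to 44.2 CPM elsewhere. Pecam1 held 64.3 CPM of that sum and Cdh5 2.68. Without cells that had T cell or endothelial markers the naïve Calcrl level was 319.3 CPM. Without T-marked cells it was 13.7-fold above week 2 and 7.08-fold above week 3 of the ta-non-activated libraries, and these 2 then differed 1.94-fold (1.49 to 2.48), week 3 being higher.

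Ramp1, the partner that makes the CGRP receptor, was at 393.9 CPM in the naïve, 71.7 and 448.6 CPM in the ta-non-activated, and 31.0 and 21.7 CPM in the ta-activated libraries of weeks 2 and 3. Both ta-activated libraries stood below the 3 fresh ones. Cells with T cell markers outside the gate carried Ramp1 as well: after each cell was thinned to 2000 UMIs, 57.6% of 582 such cells at week 3 of the ta-non-activated group had a Ramp1 UMI (53.4 to 61.6, Clopper-Pearson), against 64.0% of the gated cells (60.6 to 67.3).

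Ramp3, the adrenomedullin receptor partner, followed Calca among the fresh libraries and not in culture. The levels were 162.7 CPM in the naïve, 3.23 and 96.8 in the ta-non-activated, and 12.4 and 24.0 in the ta-activated libraries of weeks 2 and 3. The naïve level was 50.4-fold (41.6 to 61.7) above week 2 and 1.68-fold (1.53 to 1.85) above week 3 of the ta-non-activated libraries. At week 2 only 36 of 1770 gated ta-non-activated cells had a Ramp3 UMI, and 1 cell held 34 of the 106. Without T-marked cells the week 3 ta-non-activated level was 215.4 CPM and the naïve level 158.3 CPM, the opposite order. In the naïve library Ramp3 was also present outside the gate, at 349.8 CPM (325.2 to 375.7).

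Nmur1, the neuromedin U receptor, was sparsely counted, with 11 to 551 UMIs per library. It was at 13.0 CPM (11.8 to 14.4) in naïve cells, at 2.22 (1.74 to 2.80) and 2.21 (1.10 to 3.95) in the ta-non-activated libraries of weeks 2 and 3, and at 6.25 (5.61 to 6.94) and 8.95 (8.22 to 9.73) in the ta-activated ones. The 2 ta-non-activated libraries could not be told apart, but in cells with Il1rl1 week 3 was 3.77-fold (1.67 to 7.74) above week 2. Its ligand genes Nmu and Nms had no UMI in any library, which allows at most 0.049 to 0.60 CPM.

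Vipr2, the VPAC2 receptor, was at 59.1 CPM (56.3 to 61.9) in naïve cells, at 2.16 (1.69 to 2.73) and 9.64 (7.11 to 12.8) in the ta-non-activated and at 0.22 (0.11 to 0.38) and 0.67 (0.48 to 0.90) in the ta-activated libraries of weeks 2 and 3. No intervals overlapped, and the order ran from naïve through ta-non-activated to ta-activated. Vip itself had no UMI in any library.

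**Figure D1:**
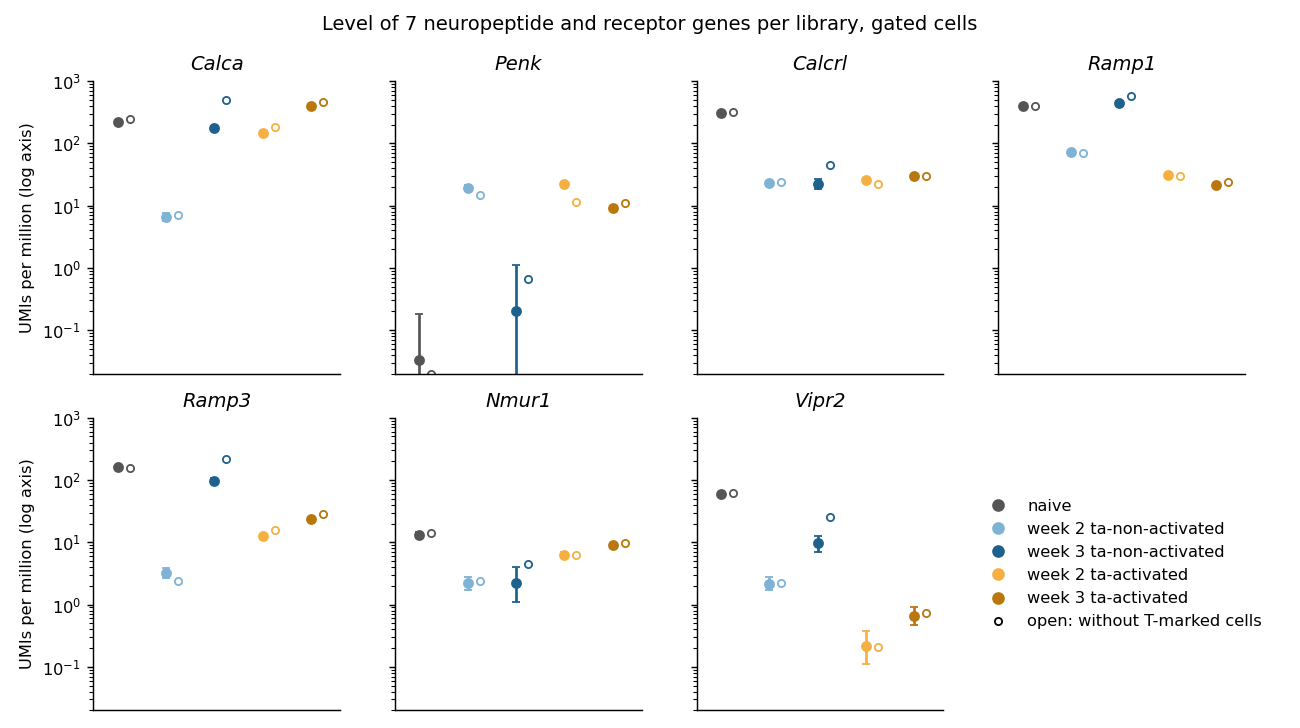
Level of each gene (CPM, log axis) in the 5 libraries, with 95% Poisson intervals as bars (those not visible are smaller than the point). Open points leave out cells with at least 3 T cell markers, and a level of 0 is drawn at the lower edge. Calcrl is high in the naïve library alone (305.9 CPM), while Calca is low in week 2 ta-non-activated cells alone (6.61 CPM).

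5 of the 7 genes had their highest fresh level in the naïve library, above both ta-non-activated libraries: Calca, Calcrl, Nmur1, Ramp3 and Vipr2. Over 15137 genes with at least 10 UMIs the share was 47%. No test was made against the naïve group, which is a single library. Ramp1 lay between the 2 ta-non-activated libraries, and the Penk levels of the naïve and week 3 ta-non-activated libraries did not differ beyond counting error. In cells with UMIs of both Il1rl1 and Gata3, and likewise without T-marked cells, the number was 3, with Calca and Ramp3 no longer among them.

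The naïve excess grew with intron length over 5696 genes with a mean of at least 20 CPM over the 5 libraries. Vipr2, Nmur1 and Penk had lower means and were not among them. The median log2 ratio of naïve to week 2 ta-non-activated was -0.69 in the 1st of 10 bins, with the shortest introns. It was 2.68 in bin 10, with the longest, and the values against week 3 were -0.66 and 2.12. Cell Ranger 6.0.0 is named in the header of the naïve file and version 3.0.2 in those of the others, and the part of this difference in the levels was not tested. 4 of the 7 genes carry long introns: Calcrl 89.9 kb (chr2:84330626-84425411, minus strand), Vipr2 64.1 kb (chr12:116077726-116146261, plus strand), Ramp1 42.4 kb (chr1:91179822-91225196, plus strand) and Nmur1 38.2 kb (chr1:86386303-86426228, minus strand). Ramp3 has 17.6 kb (chr11:6658521-6677475, plus strand), Penk 3.66 kb and Calca 3.20 kb.

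Against genes of the same bin of intron length, Calcrl had a log2 ratio of 3.66 against week 2 and 3.73 against week 3, where the medians were 1.47 and 1.23 and the 90th percentiles 3.28 and 2.40. Vipr2, set beside the same bin by its length, had 4.25 and 2.50. Both genes lay above the 90th percentile of that bin in both comparisons, Vipr2 narrowly so against week 3. The median gene there already had a log2 ratio of 1.47 or 1.23. How Vipr2, Nmur1 and Penk rank among genes of their own level was not tested. Without T-marked cells the naïve level of Vipr2 was 2.44-fold (1.77 to 3.44) above week 3 in place of 6.13-fold, and the bins were not recomputed for those cells. Nmur1 had 2.12 and 2.13, against 90th percentiles of 1.91 and 1.32. Its naïve level was 5.90-fold (3.26 to 11.9) above week 3 in gated cells and 3.14-fold (1.51 to 7.88) without T-marked cells. In cells with Il1rl1 it was 1.84-fold (0.99 to 3.86), which is not beyond counting error. Calca, with short introns, had 4.84 against week 2, where the median of its bin was -0.91, and 0.28 against week 3. Ramp3 had 5.28 and 0.74, and only the first was above the 90th percentile of its bin (1.42 and 0.90). Ramp1 had 2.44 and -0.19, both between the 10th and 90th percentiles of its bin. Penk had -4.31 against week 2, below the 10th percentile of its bin (-2.64), and -0.22 against week 3.

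**Figure D2:**
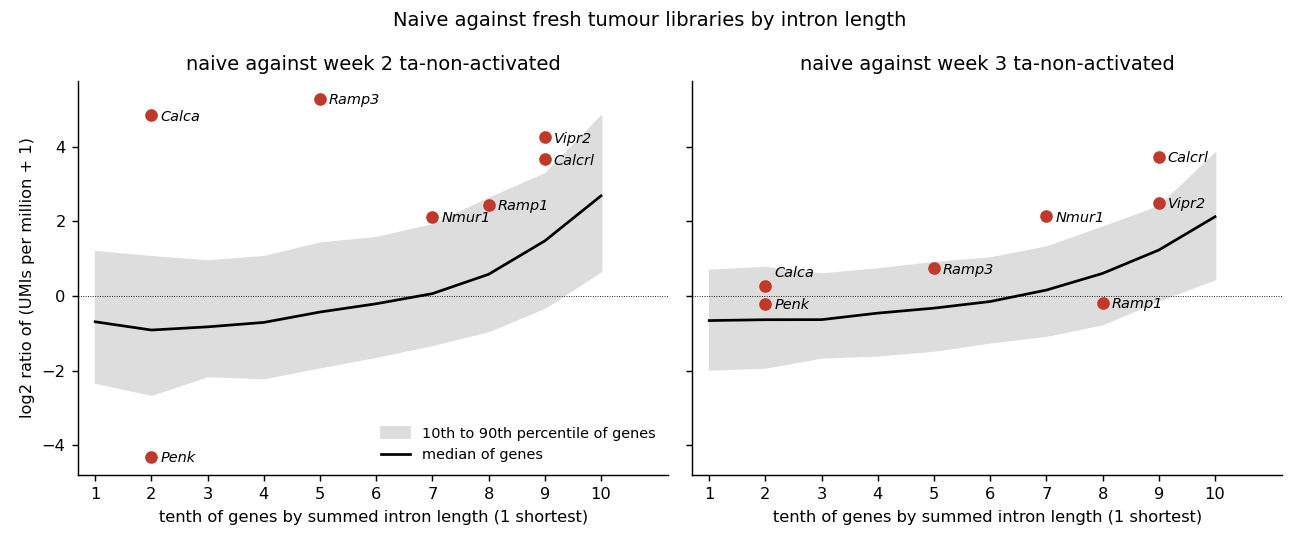
Log2 ratio of naïve to ta-non-activated levels (CPM with 1 added), against 10 bins of 5696 genes by summed intron length. The binned genes had a mean of at least 20 CPM. Vipr2, Nmur1 and Penk do not reach it and are placed by their length. The line is the median of each bin, the band spans the 10th to 90th percentiles, and the red points are the 7 genes. Calcrl and Vipr2 sit in bin 9, where the medians are 1.47 and 1.23. Calca and Ramp3 leave the band upwards and Penk downwards against week 2, and none of these 3 leaves it against week 3.

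The replicated comparison, ta-activated against ta-non-activated with 2 libraries in each group, called none of the 7 genes in the quasi-likelihood test of edgeR after Benjamini-Hochberg adjustment. It called 0 of 12569 genes (0%), while 2228 (17.7%) had an unadjusted p under 0.05. DESeq2 called 1042 of 12434 genes (8.38%), Ramp1 and Vipr2 among them, with adjusted p of 0.0022 and 0.0051. Without the ta-non-activated library of week 2, which stood near the cultured ones, edgeR called 1175 of 13412 genes, Ramp1 and Vipr2 among them (adjusted p = 0.031 and 0.049), on the assumption that the lone week 3 library varies like the ta-activated pair. Without the week 3 library instead, 500 genes were called and neither of these was (adjusted p = 0.060 and 0.13), with log2 changes of -1.69 and -2.55 in edgeR. As these libraries come from pools of mice, the spread is that between pools and weeks.

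Nmur1 and Calcrl were higher in both ta-activated than in both ta-non-activated libraries, 2 of 7 genes where 32.7% of all tested genes were. Ramp1 and Vipr2 were lower in both, again 2 of 7, where 20.3% of all tested genes were. In edgeR the log2 change of Nmur1 was 1.70 ± 0.42 (SE, adjusted p = 0.21), and week 2 and week 3 gave 2.81-fold and 4.05-fold. The week 3 ratio was 2.15 (1.03 to 5.37) without T-marked cells and 1.54 (0.83 to 3.24) in cells with Il1rl1, and the log2 change was 0.80 in cells with both Il1rl1 and Gata3. Vipr2 had a log2 change of -3.71 ± 0.995 (adjusted p = 0.22) and Ramp1 one of -3.29 ± 0.91 (adjusted p = 0.22) in the same test. By week, Vipr2 was 10.0-fold and 14.5-fold lower in culture and Ramp1 2.31-fold and 20.6-fold lower. Without T-marked cells Vipr2 was 34.2-fold lower at week 3. Calcrl was 1.09-fold (0.99 to 1.19) at week 2, not beyond counting error, and 1.34-fold (1.11 to 1.64) at week 3. Its log2 change was 0.21 ± 0.31 (adjusted p = 0.74 in edgeR), and without T-marked cells it was -0.56.

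Calca was higher in culture in both weeks, 22.4-fold at week 2 and 2.24-fold at week 3, with an edgeR log2 change of 1.58 ± 1.41 (adjusted p = 0.59). At week 2 the top 1% of cells held 49.3% of the 217 ta-non-activated and 39.0% of the 8251 ta-activated Calca UMIs. Without T-marked cells the week 3 ratio was 0.93 (0.86 to 0.999). Ramp3 went opposite ways, 3.84-fold higher at week 2 and 4.04-fold lower at week 3, with 6.56-fold and 7.52-fold in the same directions without T-marked cells, and its joint log2 change was -1.43 ± 1.40 (adjusted p = 0.62 in edgeR). Penk had 1.16-fold (1.05 to 1.27) at week 2 and 45.6-fold (8.15 to 1805) at week 3, the latter from 1 UMI in the ta-non-activated library. The week 2 ratio turned to 0.79 (0.68 to 0.90) without T-marked cells and was 3.57 in cells with Il1rl1. These ratios hang on 1 ta-activated cell with 670 of the 1255 Penk UMIs. It was not among the cells without T cell marks, which held 436, but was among those with Il1rl1, which held 980. The counting intervals do not cover such spread over cells. The joint log2 change of Penk was 0.51 ± 1.52 (adjusted p = 0.88 in edgeR).

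**Figure D3:**
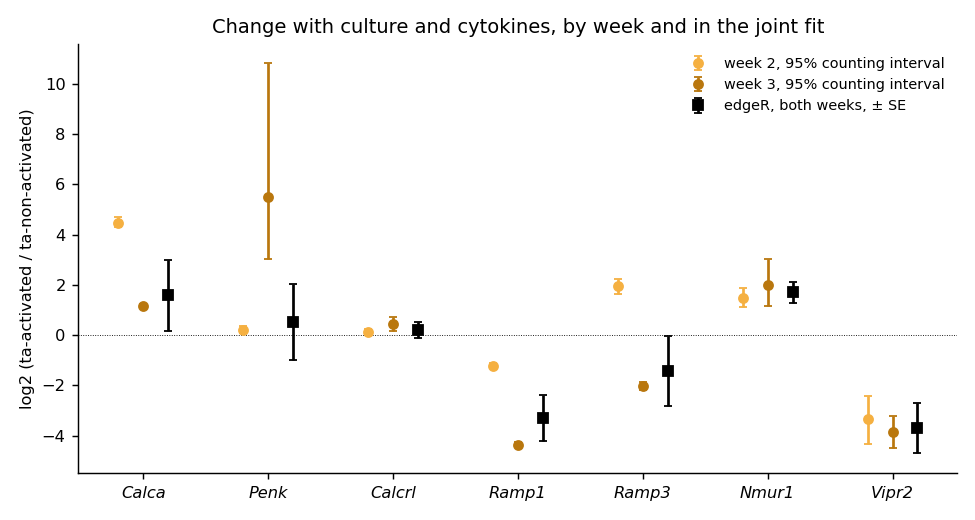
Log2 ratio of ta-activated to ta-non-activated levels for each gene, at week 2 and week 3 with 95% counting intervals, and in the edgeR fit over both weeks with its SE. Nmur1 (1.70) lies above 0 and Ramp1 (-3.29) and Vipr2 (-3.71) below 0 in both weeks, while Ramp3 changes side between weeks.

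How many cells carried a gene was read after thinning each cell to 2000 UMIs, which left out 4 to 183 shallower cells per library. Calca was found in 17.8% of naïve cells (16.8 to 18.9, Clopper-Pearson), in 1.08% and 16.5% of ta-non-activated cells and in 14.1% and 28.3% of ta-activated cells of weeks 2 and 3. Before thinning, 1465 of 5886 naïve and 1900 of 3738 week 3 ta-activated cells had one. For comparison, 1.55% of 582 T-marked cells outside the gate at week 3 of the ta-non-activated group had a Calca UMI. In the naïve library 3.49% of 258 such cells had one. Whether these UMIs are stray RNA or come from the cells themselves was not tested.

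Among the receptor genes, Calcrl was found in 34.0% of naïve cells and in 4.07% to 6.10% of the cells of the other 4 libraries, and in 7.36% of the T-marked naïve cells outside the gate. Ramp1 was found in 53.3% of naïve, 14.6% and 64.0% of ta-non-activated, and 4.81% and 4.27% of ta-activated cells. Ramp3 was found in 21.1%, 0.45%, 17.8%, 1.94% and 4.30% in the same order, and in 46.9% of the 258 T-marked naïve cells outside the gate. In the naïve library Ramp3 was thus more frequent in these T-marked cells than in the gate.

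The rarer genes were found in few cells. Vipr2 was found in 9.68% of naïve cells, in 0.57% and 3.47% of ta-non-activated cells, in 0 of 2681 week 2 ta-activated cells, which allows up to 0.11% of cells with a UMI at this thinned depth, and in 0.22% of week 3 ta-activated cells. Nmur1 was found in 2.37% of naïve cells and in 0.68% to 2.07% of the others, and 0.39% of T-marked naïve cells outside the gate had a UMI of each. Before thinning, 12 of 2712 week 2 ta-activated cells (0.44%) had a Vipr2 UMI, so the limit does not bound the share of cells that express the gene. Penk was found, at the thinned depth, in 0 of 5703 naïve and 0 of 836 week 3 ta-non-activated cells, where 1 cell in each had a UMI before thinning, and in 1.30%, 0.34% and 0.46% of the week 2 ta-non-activated and the week 2 and week 3 ta-activated cells.

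**Figure D4:**
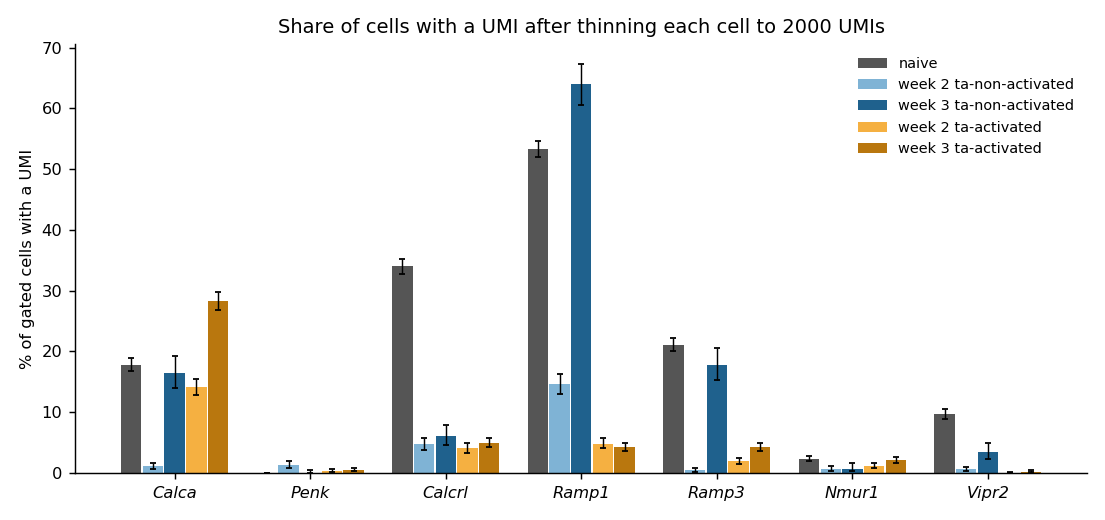
Share of gated cells (%) with a UMI of each gene after thinning every cell to 2000 UMIs, with 95% Clopper-Pearson intervals. Bars of a gene run from the naïve through the ta-non-activated to the ta-activated libraries. Ramp1 is found in 53.3% and 64.0% of cells in the naïve and week 3 ta-non-activated libraries and in under 5% of ta-activated cells.

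Within libraries, cells that carried Calca also carried more Areg (amphiregulin, a repair factor) and Il5 (the eosinophil growth factor). Both are from a list of 10 ILC2 effector genes, and only some genes of the list are given here and below. In the naïve library Areg was at 1689 CPM in the 1017 thinned cells with a Calca UMI and at 778.3 CPM in the 4686 without. In week 3 ta-non-activated cells the values were 1732 and 356 CPM, in week 2 ta-activated cells 1131 and 965.5, and in week 3 ta-activated cells 877.2 and 605.0. The Poisson intervals did not overlap in any of these 4 libraries. Il5 was at 352 against 132.7 CPM, 402.2 against 81.7, 1150 against 996.7 and 1218 against 711.3 in the same order, again without overlap.

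Cells with Ramp3 also had more Calca in these libraries. It was at 406.5 CPM in naïve cells with a Ramp3 UMI and at 169.3 CPM in those without, at 969.8 and 157.9 in the week 3 ta-non-activated, at 711.5 and 187.1 in the week 2 ta-activated, and at 2370 and 434.1 in week 3 ta-activated cells. Areg was 1.75-fold to 3.65-fold higher in cells with a Ramp3 UMI in these 4 libraries. Without T-marked cells, Areg in week 3 ta-non-activated cells was still 2097 CPM with and 572.7 CPM without Calca, and 2202 and 626.1 with and without Ramp3. The Il5 values, and the Calca values with and without Ramp3, are given only with T-marked cells included. These are cells of 1 library each, so the values describe the libraries and carry no test.

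For Calcrl, Ramp1 and Vipr2 the naïve cells did not show higher Areg. It was at 939.9 CPM in naïve cells with Calcrl and at 941.0 CPM in those without, and at 902.1 and 984.6 CPM with and without Ramp1. Naïve cells with Vipr2 had less Csf2 (245.5 against 378.7 CPM) and less Areg (803.4 against 955.3 CPM) than those without, and more Il2 (163.9 against 123.6 CPM). In the ta-activated libraries the 31 and 76 thinned cells with Nmur1 had more Il5, at 1774 against 1009 CPM at week 2 and 1533 against 840.6 at week 3, and more Calca, at 451.6 against 194.3 and 1342 against 499.9.

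**Figure D5:**
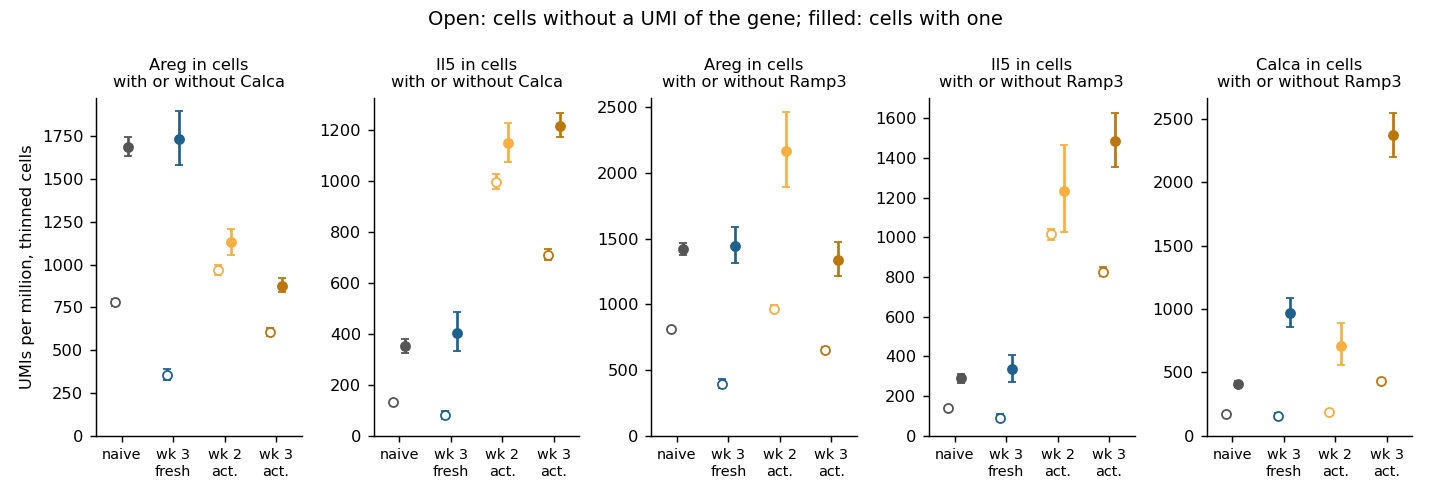
Level (CPM in cells thinned to 2000 UMIs) of Areg, Il5 and Calca in cells with (filled) and without (open) a UMI of Calca or Ramp3, with 95% Poisson intervals, in the 4 libraries with at least 20 such cells. Each filled point is above its open point, such as Areg at 1689 against 778.3 CPM for Calca in naïve cells.

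Cycling cells, those in which 2 or more of 12 cell cycle genes had a UMI once thinned, carried less Calca in the ta-activated and week 3 ta-non-activated libraries. The level was 205.1 CPM (181.2 to 231.2) in 651 cycling and 584.5 CPM (565.4 to 604.1) in 3025 other week 3 ta-activated cells, and 149.5 and 212.7 CPM at week 2. In week 3 ta-non-activated cells the 100 cycling cells had no Calca UMI, which allows up to 15 CPM, and the others had 343.8 CPM. Fewer than 20 cycling cells were left there without T-marked cells, so no value is given without them, and the T-marked cells of that gate held 36.5 CPM of Calca. In the naïve library the 38 cycling cells had 118.4 CPM (54.1 to 224.8), from 9 UMIs. The others had 220.0 CPM (211.5 to 228.8), and these intervals overlap. For the set without T-marked cells the thinning was drawn anew, which changed both the UMIs and the cycling cells. That draw gave 431.8 CPM in 22 cycling cells, from 19 UMIs, and 244.4 CPM in the other cells. As the draws differ, the turned order cannot be read as an effect of leaving out T-marked cells. Ramp3 was lower in cycling cells of the ta-activated libraries too, at 9.22 against 39.2 CPM at week 3 and 5.37 against 22.9 CPM at week 2.

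Other genes of the pathways were counted from fixed lists. Of 18 further neuropeptide ligand genes, 12 had a UMI and 3 reached 20 CPM: Nmb, Grp and Nts. Nmb (neuromedin B) was at 24.4 CPM in the naïve, 3.72 and 11.4 in the ta-non-activated and 20.9 and 17.1 in the ta-activated libraries. Grp (gastrin-releasing peptide) was at 0.60, 0.61 and 0 CPM in the fresh libraries and at 34.4 and 249.1 CPM in the ta-activated ones, and Nts (neurotensin) at 0.066, 0 and 0 and at 81.9 and 182.1 CPM. The top 1% of cells held 84.1% and 59.4% of the Grp UMIs and 99.4% and 98.6% of the Nts UMIs in the ta-activated libraries of weeks 2 and 3. Against the limit of 3 UMIs in each ta-non-activated library, Nts was at least 896.3-fold and at least 302.2-fold higher, yet neither gene was called (adjusted p = 0.20 in edgeR for both).

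Of 17 further neuropeptide receptor genes, 14 had a UMI and none reached 20 CPM. Ramp2, the remaining partner of CALCRL, was at 5.42 CPM in the naïve library and 0.55 to 2.39 CPM elsewhere. Oprm1, the mu-opioid receptor, was at 7.67 CPM in the naïve library and 0 in the other 4, and has 271.7 kb of introns. Of 18 adrenergic, dopamine and acetylcholine receptor genes, 13 had a UMI and none reached 20 CPM, with Adra1b (123.2 kb of introns) at 3.60 CPM in the naïve library and Chrna9 at 6.23 CPM in week 3 ta-non-activated cells.

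Of 10 genes for the processing and storage of propeptides, Furin and Pcsk1 reached 20 CPM. Pcsk1 (prohormone convertase 1), with 39.4 kb of introns, was at 173.2 CPM in the naïve library. It was at 26.9 and 43.0 CPM in the ta-non-activated and at 27.9 and 14.7 CPM in the ta-activated libraries. Its naïve level was 4.03-fold above week 3 ta-non-activated cells, but 1.46-fold without T-marked cells and 1.60-fold in cells with Il1rl1. Against week 2 it was 6.43-fold, and 6.83-fold without T-marked cells. Furin was at 1004 CPM in the naïve and 495.8 to 713.9 CPM in the other libraries. Among 18 genes of G proteins and receptor desensitisation, 13 reached 20 CPM, and Gnas, the G protein that carries the signal of CALCRL and VPAC2 to adenylyl cyclase, was at 605.5 to 715.4 CPM in all 5. Rgs2, a brake on G protein signals with 1.20 kb of introns, was at 1269, 1.34, 492.8, 8.84 and 9.13 CPM in the order above. Of 25 genes of the cAMP pathway 15 reached 20 CPM, among them Pde7a at 603.6 CPM in the naïve library and 23.8 to 106.8 CPM elsewhere (80.5 kb of introns).

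None of these list genes was called in edgeR. At an unadjusted p under 0.05, 2 of 6 tested ligand genes, 1 of 2 receptor genes, 1 of 3 adrenergic, dopamine and acetylcholine receptor genes, 5 of 18 G protein genes, 2 of 21 cAMP genes and 0 of 4 propeptide processing genes were higher in culture and none was lower, where 17.7% of all tested genes passed in either direction. The median log2 changes of these 6 lists were 1.43, 2.07, 0.92, 0.37, 0.17 and 0.042, beside 0.043 over all genes tested.

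The genes whose levels over the 5 libraries lay closest to each gene, by the root mean square difference of centred log2(CPM + 1) among 7342 genes that reached 20 CPM, differed between the receptor genes. For Calcrl they were Med12l (0.056), Fancc (0.099) and Lrba (0.11), which have 300.1, 203.9 and 538.7 kb of introns. For Vipr2 they were Smyd3 (0.29), Epas1 (0.29) and Nfkbid (0.30), with 556.9, 74.1 and 4.67 kb. Ramp3 had Lmo4 (0.39), Neurl3 (0.40) and Btg2 (0.45), all with introns of 13.2 kb or less, and Ramp1 had Cxcl1 (0.31), Emid1 (0.32) and Hs3st1 (0.34). Calca had Mxd1 (0.55), Cd28 (0.83) and Trim12a (0.84), and Penk had Asns (0.31), Phlda3 (0.43) and Vim (0.44). Nmur1 did not reach 20 CPM in any library and was left out of this search.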

How the data were processed

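The deposited files hold raw UMI counts of each gene in each barcode, not normalized by the authors, for 5 libraries (10x Genomics 3' kit), 1 of them naïve. The matrix headers name Cell Ranger 6.0.0 (naïve) and 3.0.2 (the others). The submitters' processing notes name Cell Ranger 3.0.2, Seurat 3 and GRCm38. The annotation is not given in the sources used here. Genes common to all matrices were used (27726), 99.7% of which were found in GENCODE M21. Libraries held 9910201 to 71126524 UMIs.

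Kept barcodes had 200 genes or more, less than 5% mitochondrial counts and a UMI of Il1rl1 or Gata3. No doublet caller was run. Counts were summed per library. Levels have Poisson and shares Clopper-Pearson intervals (95%), which cover counting error only, and a count of 0 has the limit of 3 counts. The ta-activated against ta-non-activated test was edgeR 4.0.16 (filterByExpr, TMM, quasi-likelihood, Benjamini-Hochberg threshold 0.05), with DESeq2 1.42.0 as an alternative. The procedure was also run on simulated counts with the same spread for all genes, which does not measure how it performs on these libraries. The genes and lists were chosen with earlier results of these data known. Beside the 7 genes, list genes at or above 20 CPM and the 3 nearest profiles of each gene were named, and others (such as Oprm1, Ramp2, Adra1b, Chrna9, Nmu, Nms and Vip) after their values were seen. Intron lengths and sequences are from GENCODE M21 on GRCm38. Python 3.11.15 was used for the other steps.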

Additional observations from a re-analysis of the deposited data

Results flagged for a closer look

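Ramp3 differed between the ta-activated and ta-non-activated libraries in opposite directions at the 2 time points. It was at 3.23 CPM in the ta-non-activated and 12.4 CPM in the ta-activated library at week 2, and at 96.8 and 24.0 CPM at week 3. With 1 library per group and week, the difference between the weeks was not tested. The Poisson intervals did not overlap in either week.

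Ramp1 differed from the naïve level in opposite directions in the 2 ta-non-activated libraries. It was at 393.9 CPM in the naïve library, at 71.7 CPM at week 2 and at 448.6 CPM at week 3, and this difference was not tested either.

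Cells outside the gate, which the comparisons of gated levels left out, had levels above those outside the gate in the naïve library in 2 cases. Ramp1 was at 446.4 CPM outside the gate in the week 3 ta-non-activated library, against 345.6 CPM in the naïve library, and the T-marked cells there had it too. Calca was at 156.8 CPM (112.5 to 212.8) outside the gate in the week 3 ta-activated library, from 41 UMIs, against 59.5 CPM in the naïve library.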

How the results depend on the processing

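The number of genes called for ta-activated against ta-non-activated was 0 in edgeR and stayed 0 with all 5 libraries in the fit and under the other choices of cells. It was 1042 with DESeq2 and 104 with no filter on low counts, and leaving out 1 library at a time gave 0 to 1175: 1175 without ta-non-activated replicate 1 (week 2), 500 without replicate 2 (week 3), 0 without ta-activated replicate 1 and 3 without replicate 2, where the lone library is assumed to vary like the other group. The fit with a replicate block for the week also called 0 genes, with 1701 at an unadjusted p under 0.05, and same-week libraries did not deviate together (correlation -0.033). The median log2 change over all genes was 0.043, and it was 0.16 without the filter, 0.10 with the block and 0.14 and 0.11 without ta-non-activated replicates 1 and 2. Without ta-non-activated replicate 1 the log2 changes of Ramp1 and Vipr2, then called in edgeR, were -4.02 and -4.39, and without replicate 2, where neither was called, -1.69 and -2.55.

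Of 112 alternative log2 changes of the 7 genes, 8 reversed. Leaving out 1 library at a time gave -2.36 (without ta-non-activated replicate 1) to 2.23 (without replicate 2) for Ramp3, 0.38 to -0.013 for Calcrl and 6.36 to -0.53 for Penk in the same order, and -0.31 for Penk without ta-activated replicate 1. For Calcrl it was -0.097 in cells with both Il1rl1 and Gata3, -0.092 in cells with Il1rl1, -0.56 without T-marked cells and -0.58 without T-marked and endothelial-marked cells. The causes were not tested.

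The number of genes higher in the naïve than in both ta-non-activated libraries was 5. It was 3 (Calcrl, Nmur1 and Vipr2) in cells with both Il1rl1 and Gata3, in cells with Il1rl1, without T-marked cells and without T-marked and endothelial-marked cells, 4 to 5 under the others, and 5 to 6 when 1 ta-non-activated library was left out. By the thinned share of cells it was 5, and 3 without T-marked cells. The number higher in both ta-activated libraries was 2. It was 0 in cells with both genes and in cells with Il1rl1, 1 (Nmur1) without T-marked cells, without T-marked and endothelial-marked cells, in thinned cells and as a mean over cells, 3 without the gate, and 3 to 4 when 1 library was left out. The choices "without T-marked cells" and "cells with Il1rl1" were made after the data had been seen. Of 315 alternative levels 172 lay within the counting interval, as did 67 of 140 alternative shares. Depth limits Nmur1, Vipr2 and Penk in the week 3 ta-non-activated library, where 3 UMIs are 0.60 CPM.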
